A study of Mus musculus with 6 samples.

Results

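The piRNAs of long non-coding RNA (lncRNA) genes were followed in 6 libraries of small RNA from spermatogonial stem cells of the mouse kept in culture. A sequence was a member if it was 25 to 31 nt long, had no exact match to an annotated small RNA, and matched in the sense direction exactly 1 gene that is neither protein-coding nor a pseudogene. Genes that hold ribosomal RNA (Gm42418, Gm26917, CT010467.1 and AY036118) were left out. Of 8076097 distinct sequences of 25 to 31 nt, 144912 were members. They came from 5525 of the 13865 genes of these types in the annotation (GENCODE M21, GRCm38). For comparison, 3861382 sequences matched 1 protein-coding gene by the same steps.

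piRNAs are germ line small RNAs that are bound by Piwi proteins and silence transposons. MILI (gene Piwil2) is a Piwi protein of mouse spermatogonia, and the piRNAs it binds usually begin with U, written T here. Hen1 (gene Henmt1) adds a 2′-O-methyl group to their 3′ end, and small RNAs without it tend to be trimmed and to receive extra bases. Many piRNAs are cut from long transcripts that carry no protein, and others from mRNAs. Where 2 piRNAs come from opposite strands by reciprocal cutting, called ping-pong, their 5′ ends overlap by 10 nt and the partner often has A at position 10.

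There were 6 libraries, 1 per group. The cells came, per the protocol, from a 15-day-old male F1 mouse of C57BL/6 and DBA2 that carried actin-EGFP, although the strain label names C57BL/6 alone. They grew on embryonic fibroblast feeders. The groups were untreated wild type, wild type treated with NaIO4, untreated mhen1-/-, mhen1-/- treated with NaIO4, untreated mili-/- and RNA from wild type cells immunoprecipitated with a MILI antibody. Both knockouts were made by transient transfection of Cas9 with guide RNAs and picking of single colonies, so clone and genotype cannot be told apart. NaIO4 oxidises a 3′ end with free hydroxyls, which then does not enter the library, while a 2′-O-methylated end resists. Values in a row below follow this order of libraries unless named.

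The libraries held 7322408, 10282416, 11702714, 2604390, 4808088 and 25240941 reads of 18 to 35 nt, and shares and levels (rpm, reads per 1000000) are of these. microRNAs from germ line hairpins (Mir741, Mir871, Mir470, Mir182, Mir183 and Mir96) made up 21.8% to 47.0% of microRNA reads in the 6 libraries, those of the fibroblast list 0.571% to 1.90%, and those of the blood list 0.0248% to 0.0656%. All 6 germ line hairpins were read in every library, and of the blood list Mir142 was read in every library (813, 76, 537, 44, 1068 and 39 reads), while Mir451a, Mir144 and Mir223 had 12 reads or fewer in each. In bulk RNA, fewer cells of a type and less RNA per cell cannot be told apart. With 1 library per group there was no replicate check and no test, so each comparison is between these libraries, and the 95% intervals (exact, Clopper-Pearson for shares) cover counting error only. The comparisons of both knockouts and of the immunoprecipitate share the untreated wild type library.

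The sequences below are the most read member in the immunoprecipitate of each of the 12 lncRNA genes that gave the most reads there. They are shown because these genes hold much of the class, and because the first base and position 10 are described further on. The first base is in capitals, and so is position 10 where it is A.
Gm38246: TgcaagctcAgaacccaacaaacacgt
Gm30948: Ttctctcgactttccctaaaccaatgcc
1700001L05Rik: TgactagttAcgaaattccagtagactc
AU020206: Tgcctcatccgctgccaggaccctgcc
2900097C17Rik: Tagaaagacccaggagcgacactcgtccc
Gm49654: Tagcacttgtccttggcttgacctgaga
Gm49116: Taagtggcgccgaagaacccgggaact
Gm38194: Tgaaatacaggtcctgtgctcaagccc
1700020I14Rik: Tgagaagcggagtacttgtgctggacc
Malat1: Tttgagccagaagaccgaaattaacttt
BC051077: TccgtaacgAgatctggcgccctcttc
Gm42653: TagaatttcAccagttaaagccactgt
Every sequence of the 12 began with T, and 4 had A at position 10. The Gm38246 sequence lies at chr3:51104459-51104485 on the plus strand (GRCm38), in the only exon of its gene, and was read 12501 times in the immunoprecipitate, 21.9% of that gene's reads. It was read 2420, 4981, 4401, 266 and 0 times in the other libraries, in order. The Gm30948 sequence, at chr12:115285708-115285735 on the plus strand in exon 4 of 4, was read 99, 287, 317, 10, 0 and 1477 times. The Malat1 sequence, at chr19:5798228-5798255 on the minus strand in the only exon of the longest transcript, was read 178, 480, 235, 15, 0 and 336 times. The BC051077 sequence, at chr5:117312711-117312737 on the minus strand in exon 2 of 2, was read 85, 158, 180, 6, 0 and 2509 times. Of the 12 sequences, only that of 1700001L05Rik had a read in the Mili knockout, and it had 1.

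lncRNA piRNAs were a small part of each library. Member reads numbered 88478, 196562, 229170, 14649, 11997 and 458811, which was 1.21%, 1.91%, 1.96%, 0.562%, 0.250% and 1.82% of the reads. Of piRNA-like reads (25 to 31 nt with no small RNA match) they made up 2.84%, 2.90%, 3.27%, 2.34%, 1.85% and 2.46%. Rmrp, the RNA of the RNase MRP enzyme, is annotated as a lincRNA and so met the rule, and it stood apart from the other genes. It gave 75.4% of member reads in the Mili knockout, 7.34% in untreated wild type and 0.0987% in the immunoprecipitate. Results that rest on it are therefore given with and without it.

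The class was concentrated in few genes. In the immunoprecipitate 14 genes held 50% of member reads and 395 held 90%, and in untreated wild type 9 and 306 did. The 12 leading genes of the immunoprecipitate held 48.1% of member reads there, 49.1% in untreated wild type, 58.4% in the untreated Hen1 knockout and 1.53% in the Mili knockout. By annotation, lincRNAs gave 70.3% of the wild type reads, genes of type TEC, an annotation class that awaits experimental proof, 13.8%, processed transcripts 6.77% and antisense genes 5.72%. A further 12 genes were immunoglobulin or T cell receptor segments, which met the rule as written and gave 0.108% of reads or less for any 1 type. Genes that neither overlapped a protein-coding gene nor began within 10 kb past the end of one gave 61.2% of wild type reads, and those that began there on the same strand 22.6%, Rmrp included.

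Gm38246 led in every library but the Mili knockout. It is a lincRNA of 1 exon and 1511 nt at chr3:51103660-51105170. It gave 1982, 3170.0, 3790.3, 997, 3.33 and 2259 rpm. Its reads came from a few places: 4 of 529 5′ ends held 50% of the reads in the immunoprecipitate, and 1 end, at position 800 of the transcript, held 27.5%. The 100 nt from 701 to 800 held 33.6% of the immunoprecipitate's reads and 29.6% of those in wild type.

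Gm30948, a lincRNA of 4 exons at chr12:115262684-115287908, was the next. It gave 1229, 1967, 2987, 769, 2.50 and 1376 rpm. Nearly all of its reads lay from position 1201 on in a transcript of 4827 nt and were spread more widely, with 23 of 776 5′ ends holding 50%. Part of what these loci gave was alike: 26.5% of the Gm38246 reads in the immunoprecipitate lay within 1 mismatch of Gm30948, and 16.8% of the Gm30948 reads within 1 mismatch of Gm38246. Within 1 mismatch of any other gene lay 54.95% and 32.4% of their reads, so their exact assignment is uncertain.

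**Figure D1:**
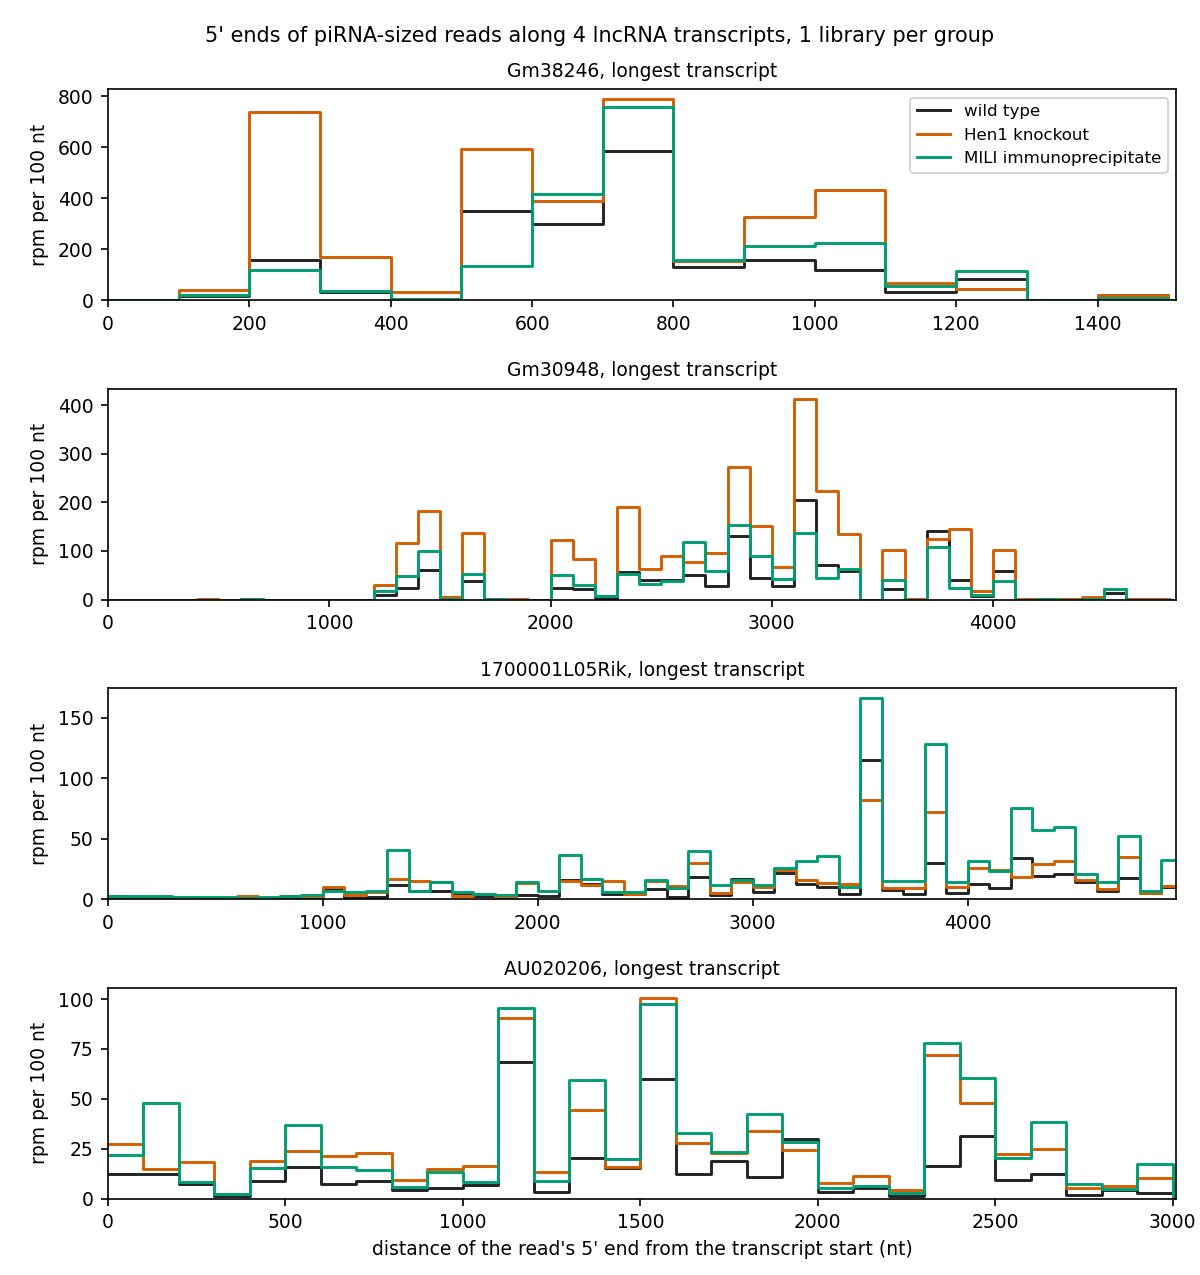
Reads whose 5′ end falls in each 100 nt of the longest transcript (rpm, y axis) against distance from the transcript start (x axis, nt) for Gm38246, Gm30948, 1700001L05Rik and AU020206, in untreated wild type, the untreated Hen1 knockout and the MILI immunoprecipitate, 1 library each. In Gm38246 the 100 nt from position 701 are the highest in all 3 libraries, while those from position 201 are next only in the Hen1 knockout (737 rpm, against 157 in wild type and 117 in the immunoprecipitate).

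1700001L05Rik and AU020206 gave reads along most of their length. 1700001L05Rik, on the minus strand at chr15:83353847-83367282, begins 8325 nt past the end of the protein-coding gene Pacsin2. It gave 522, 1085, 722, 197, 1.66 and 1152 rpm, and all 50 of its 100 nt stretches had reads in the immunoprecipitate. AU020206, on the minus strand at chr7:75769038-75782099, gave 428, 766, 779, 199.28, 0.208 and 858 rpm. In both genes 91.96% to 92.95% of the immunoprecipitate's reads began with T, and none of the reads in untreated wild type or the immunoprecipitate also matched a transcript in antisense.

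Nuclear and cytoplasmic lncRNAs that are well known from other work were among the 12. Malat1, an abundant RNA of nuclear speckles, gave 352, 738, 782, 222, 24.1 and 321 rpm. 2900097C17Rik, known as Norad, a cytoplasmic RNA that binds Pumilio proteins, gave 225, 426, 219, 64.9, 0.208 and 489.6 rpm. 1700020I14Rik, known as Cyrano, which binds the microRNA miR-7, gave 139, 296, 135, 40.7, 2.29 and 348 rpm. As a share of the library, Malat1 alone of the 12 was lower in the immunoprecipitate than in wild type total RNA (ratio 0.912, 95% interval 0.873 to 0.954). The 12 were chosen by their reads in the immunoprecipitate, which favours ratios above 1. Per protein-coding piRNA read 8 of the 12 were lower there, Malat1 at 0.428, Gm30948 at 0.525 and Gm38246 at 0.534. Malat1 had the highest Mili knockout level of the 12.

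The other 5 leading genes differed in how narrow their source was. Gm49654 begins 958 nt past the end of Map3k9 on the same strand, gave 284, 519, 304, 106, 0 and 476 rpm, and had 20 of 728 5′ ends holding 50% of reads. Gm49116 gave 310, 468, 458, 125, 1.46 and 424 rpm, with 60.3% of its immunoprecipitate reads at a single 5′ end. Gm38194, of type TEC, gave 199.25, 308, 317, 74.1, 0.624 and 413 rpm. BC051077 gave 44.7, 63.99, 68.1, 21.1, 0.416 and 320.1 rpm, and 99.9% of its immunoprecipitate reads lay within 1 mismatch of a transcript of Exosc2, so their origin is uncertain. Gm42653, also TEC, gave 216, 448, 872, 267, 1.25 and 315 rpm and had the highest ratio of the Hen1 knockout to wild type among the 12.

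**Figure D2:**
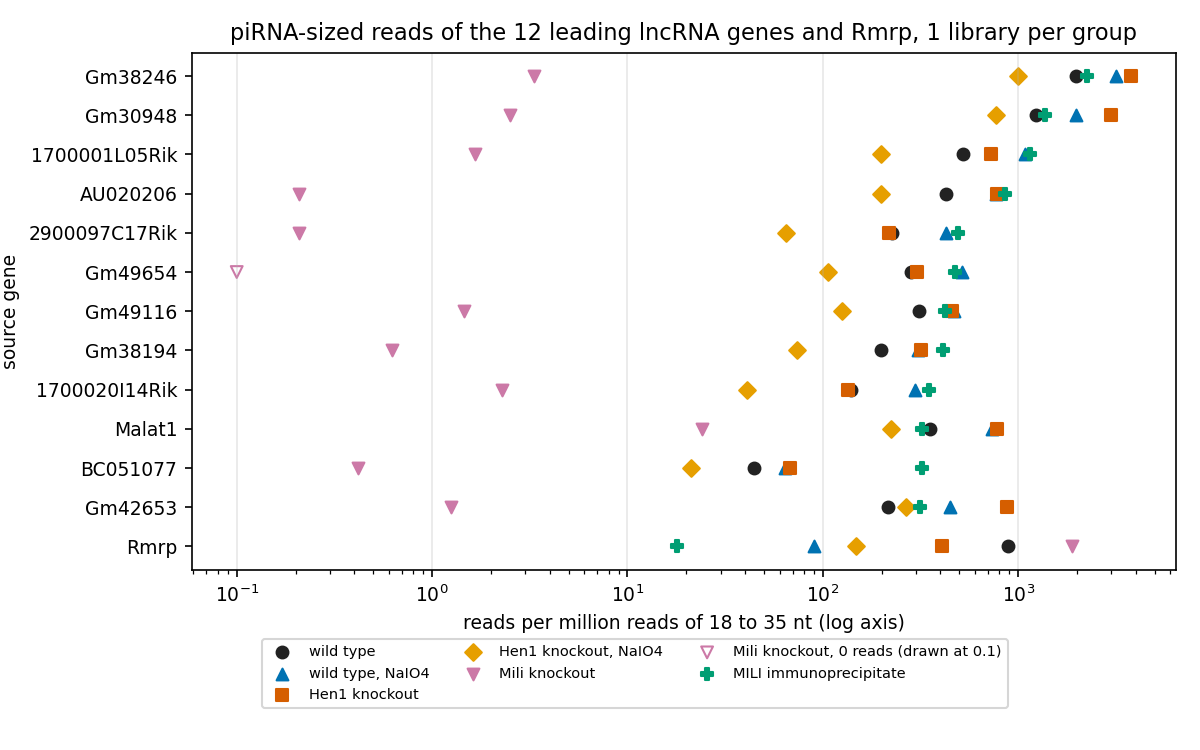
Level in rpm (log x axis) from the 12 leading lncRNA genes and Rmrp (y axis) in the 6 libraries, 1 symbol per library; the open symbol marks 0 reads. For the 12 genes the Mili knockout is at 24.1 rpm or less while Rmrp is highest there, and the Hen1 knockout with NaIO4 lies below the untreated Hen1 knockout for every gene shown.

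Whether lncRNA piRNAs carry a protected 3′ end was asked by comparing NaIO4 with no treatment. In wild type the member share was 1.58 times that without treatment (95% interval 1.57 to 1.59), and in the Hen1 knockout it was 3.48-fold lower with NaIO4 (3.42 to 3.54). The ratio of these ratios was 0.182 (0.178 to 0.185). Shares depend on what else the library holds: per protein-coding piRNA read the wild type ratio was 0.852, in the other direction, and that of the Hen1 knockout was 0.999, while per microRNA read they were 19.8 and 0.742. The share of protein-coding piRNAs was 1.86 times as large with NaIO4 in wild type and 0.288 times in the Hen1 knockout. microRNA reads numbered 1408898 of 7322408 reads in untreated wild type and 158218 of 10282416 with NaIO4. In the Hen1 knockout they numbered 867139 of 11702714 and 74674 of 2604390, so their share fell in both pairs.

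Gene by gene the same pattern was seen. Of the 388 lncRNA genes with at least 50 reads in the wild type pair, 139 (35.8%) were at least 2-fold higher with NaIO4, against 37.3% of all genes with such reads, and 4 (1.03%) were at least 2-fold lower, against 0.271%. Their median ratio was 1.77, and 1.84 over all genes. In the Hen1 knockout 260 of 307 (84.7%) were at least 2-fold lower with NaIO4, against 86.4% of all genes, with medians of 0.279 and 0.287, and 3 (0.977%) were higher, against 0.104%. All 12 leading genes had ratios of 1.43 to 2.13 in wild type and of 0.234 to 0.350 in the Hen1 knockout. Per protein-coding piRNA read these were 0.772 to 1.15 and 0.812 to 1.22, with 7 of the 12 below 1 in each pair. The share of protein-coding piRNAs itself moved with NaIO4, so this scaling compares lncRNA with protein-coding piRNAs. Per microRNA read the 12 genes ran from 17.9 to 26.6 in wild type and from 0.604 to 0.905 in the Hen1 knockout. The microRNA share fell with NaIO4 in both, more so in wild type, so this denominator moved too. The direction thus depends on the denominator. Over the 50 lncRNA genes with at least 200 reads in untreated wild type, 46 were higher with NaIO4 in wild type. All 49 of them that also had 200 in the untreated Hen1 knockout were lower with NaIO4 there (ratios 0.0721 to 0.642). All genes were not counted by this rule. With 200 reads in the pair, all genes had a median of 1.86 and a lower quartile of 1.645 in wild type. In the Hen1 knockout 96.1% of all genes with such reads were at least 2-fold lower. With at least 50 reads in the pair, the shares of lncRNA genes past 2-fold in the main direction were thus close to those of all genes. As shares of piRNA-like sense reads of 1 gene, 20 of the 388 (5.15%) were higher and 20 (5.15%) lower with NaIO4 in wild type. Over all genes these were 3.72% and 2.93%. In the Hen1 knockout 31 of 307 (10.1%) were higher and 53 (17.3%) lower, against 8.7% and 14.5% of all genes.

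**Figure D3:**
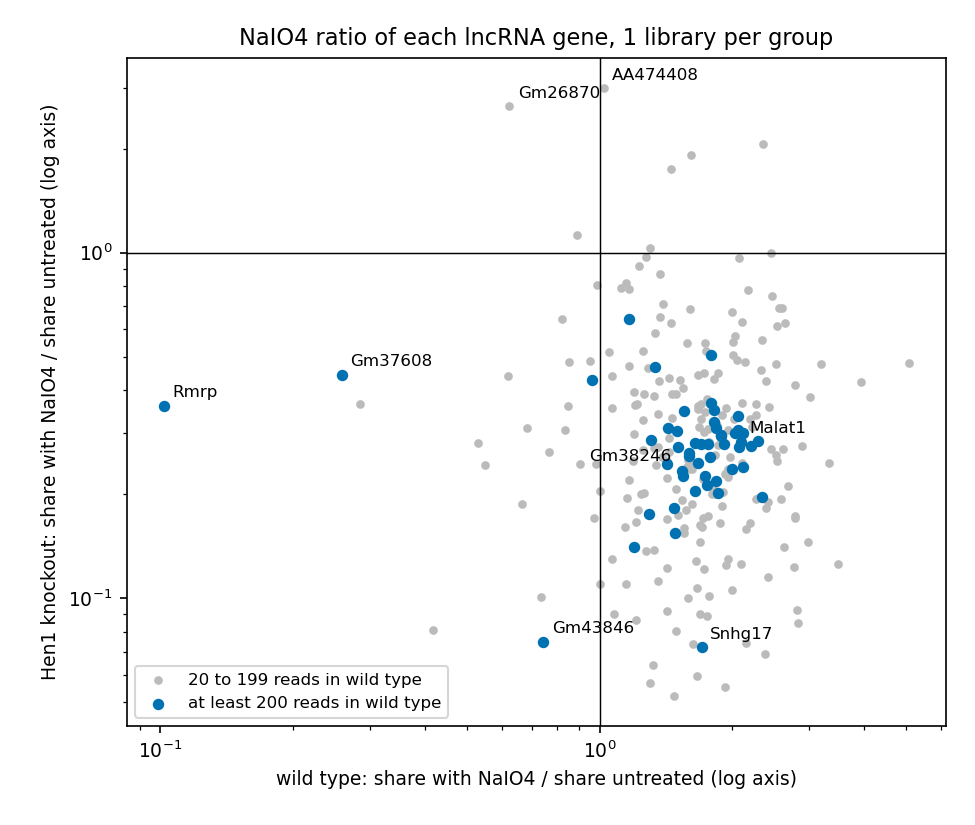
Ratio of the share with NaIO4 to the share without it in the Hen1 knockout (log y axis) against the same ratio in wild type (log x axis), 1 point for each of the 270 lncRNA genes that had 20 reads or more in each untreated library and 1 or more in each treated one. Of these, 241 lie at lower right, above 1 in wild type and below 1 in the Hen1 knockout, and Rmrp and Gm37608 lie far to the left.

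The highest wild type ratios among genes with 200 reads in the pair were those of 4632404H12Rik (3.32) and Gm42566 (3.02, with 78.8% of its immunoprecipitate reads near another gene). They gave 45 and 42 reads without NaIO4 and 210 and 178 with it, so they passed mainly through the treated library. The lowest wild type ratios were those of Rmrp (0.102) and Gm37608 (0.259). Rmrp gave 6495 reads in untreated wild type and 929 with NaIO4, and Gm37608 gave 399 and 145. In the Hen1 knockout AA474408 and Gm26870 were higher with NaIO4, at ratios of 2.996 and 2.65. They gave 174 and 215 reads without it and 116 and 127 with it, and only 15.7% and 20.0% of their untreated wild type reads began with T. The lowest ratios there were those of Snhg17, a snoRNA host gene (0.0721, from 374 and 6 reads), and Gm43846 (0.0749, from 240 and 4 reads).

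Loss of Hen1 was compared with wild type without treatment. Member reads were 1.62 times as large a share (1.61 to 1.63), 1.28 times per protein-coding piRNA read and 4.21 times per microRNA read. With each distinct sequence counted once the ratio was 1.01 (0.994 to 1.03). Of 377 lncRNA genes, 107 (28.4%) were at least 2-fold higher, against 11.0% of all genes, and 16 (4.24%) were at least 2-fold lower, against 3.90%. Their median ratio was 1.45, and 1.16 over all genes. On shares of piRNA-like sense reads of 1 gene, 70 (18.6%) were higher and 32 (8.49%) lower, against 4.94% and 10.6% of all genes. The difference between lncRNA genes and the rest was not tested. Of microRNA reads, wild type had 0.755% from the fibroblast list and 47.0% from the germ line list, the Hen1 knockout 1.90% and 39.8%, and their part in this result was not tested.

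Among the leading genes, Gm42653 was 4.03 times higher in the Hen1 knockout (3.82 to 4.25), Gm30948 2.43 times, Malat1 2.23 times and Gm38246 1.91 times, while 2900097C17Rik and 1700020I14Rik were each at 0.97 times. Gm47882 had the largest ratio, 8.04 (5.10 to 13.4), from 20 wild type and 257 knockout reads, and Gm26730 the next, 6.52, from 52 and 542. Their origin is uncertain, since 100% and 99.6% of their immunoprecipitate reads lay within 1 mismatch of another gene. The smallest were those of Ifi30, annotated here as a processed transcript (0.331, from 242 and 128 reads), and Gm42445 (0.400, from 166 and 106), with 100% of the latter's immunoprecipitate reads near another gene.

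lncRNA piRNAs were shorter without Hen1, and so were those of protein-coding genes. Without Rmrp, the mean length of lncRNA piRNAs was 28.1 nt in wild type with and without NaIO4 and 27.3 nt in both Hen1 knockout libraries. Protein-coding piRNAs had 28.0 nt in untreated wild type and 27.0 nt in the untreated Hen1 knockout, with 4.57% and 14.5% of reads at 25 nt. Reads of 30 and 31 nt were 12.1% and 8.67% of the class in untreated wild type and 5.39% and 2.64% in the Hen1 knockout, while reads of 25 nt were 4.71% and 11.5%. Since the set of loci could differ, the same 5′ ends were compared. At 884 ends of 147 genes that had 10 reads or more in each untreated library, the median of the mean lengths was 28.1 nt in wild type and 27.3 nt in the knockout (written to 3 digits), and the median difference was -0.617 nt. Of these ends 749 (84.7%) were shorter in the knockout, 121 longer and 14 equal. Between wild type with and without NaIO4 the median difference at 954 shared ends was 0.0 nt, with 453 shorter and 465 longer.

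**Figure D4:**
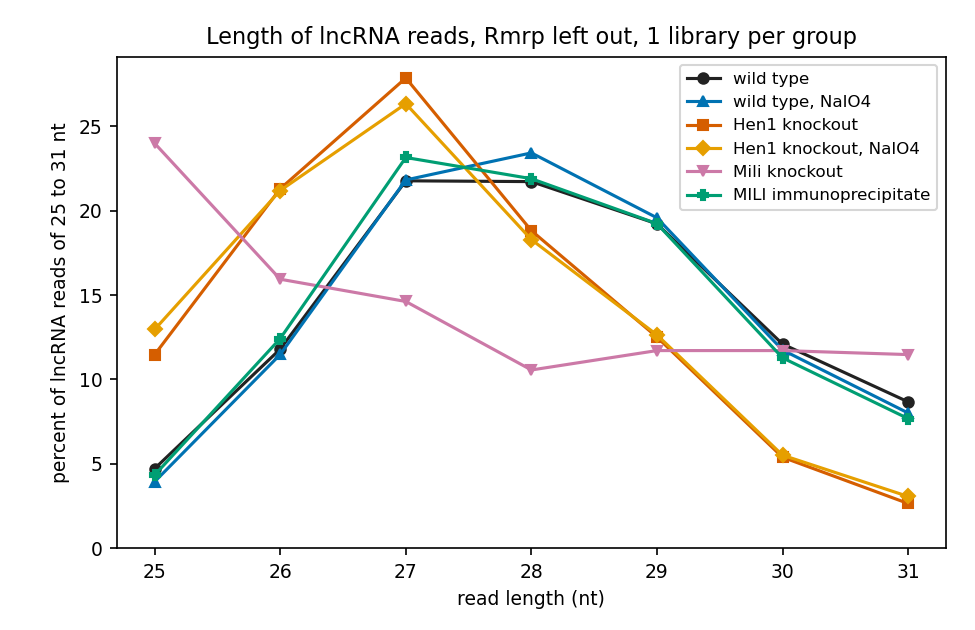
Share of lncRNA reads at each length from 25 to 31 nt (y axis, percent of these reads, Rmrp left out) against length (x axis, nt) in the 6 libraries, 1 line each. Both Hen1 knockout libraries peak at 27 nt and have fewer reads of 30 and 31 nt than the wild type libraries and the immunoprecipitate, and the Mili knockout is highest at 25 nt.

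Extra bases at the 3′ end were counted as sequences with no transcript match that become a MILI-bound member when the last base is taken off. Without Rmrp they were 7.99% of tailed and untailed reads in untreated wild type (7.79% to 8.19%), 7.01% with NaIO4, 14.2% in the untreated Hen1 knockout (14.0% to 14.4%), and 14.4% there with NaIO4. The Mili knockout had 14.2% and the immunoprecipitate 5.03%. T was the added base in 62.7% of these in wild type and in 65.2% in the Hen1 knockout, so T tails were 5.01% and 9.25% of all. Added A was 1.20% and 3.23%. In the Mili knockout 204 such reads were left, and 74.5% of them had A. A strain difference or an unread genomic copy would also count as a tail here. Untailed reads were counted only for members present in the immunoprecipitate. These were 64028 of 81983 reads in untreated wild type but all 458358 in the immunoprecipitate, so the 5.03% there rests on an unlike base.

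Without Mili, reads of nearly all lncRNA genes were scarce. The member share was 4.84-fold lower than in wild type (4.75 to 4.94), and 18.2-fold lower without Rmrp (17.6 to 18.9), while protein-coding piRNAs were 29.2-fold lower. Per 100 protein-coding reads of piRNA size there were 40.8 member reads in the Mili knockout and 6.76 in wild type, a ratio of 6.03 in the other direction. Without Rmrp there were 10.0 and 6.27. The protein-coding reads left in the Mili knockout numbered 29423 and had T first in 32.2%, against 84.0% in wild type, so this denominator differs in kind between the libraries. Of 149 lncRNA genes, 135 (90.6%) were at least 2-fold lower, against 98.8% of all genes, and 4 (2.68%) were at least 2-fold higher, against 0.175%. The median ratio was 0.0115, and 0.0131 over all genes. As shares of piRNA-like sense reads of 1 gene, 22 (14.8%) were higher and 108 (72.5%) lower, against 15.9% and 61.1% of all genes.

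The leading genes were close to empty there. Gm38246 gave 14510 reads in wild type and 16 in the Mili knockout, 595-fold lower as a share, and Gm30948 gave 8996 and 12, 492-fold lower. Gm49654 gave 2080 and 0, at least 455-fold lower with 3 reads as the floor for that library, and Gm26901 gave 1493 and 0, at least 327-fold lower, though 99.1% of its immunoprecipitate reads lay within 1 mismatch of another gene. AU020206 kept 1 read against 3137, a ratio of 0.000485 (1.2e-05 to 0.00271). Malat1 kept the most of the 12, 116 reads against 2574, and was 14.6-fold lower as a share, though at 2.004 times per protein-coding read of piRNA size, where the other 11 were below 1.

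What was left in the Mili knockout came mostly from few genes. The 14 lncRNA genes with 50 reads in the pair that were not 2-fold lower held 10784 reads, 89.9% of members in the Mili knockout, and 9.81% in wild type. Without Rmrp the other 13 held 1742 reads, 58.95% of the remaining members in the Mili knockout, and 2.67% in wild type. Of the 14, 10 had T first in under 50% of wild type reads, against 13 of all 149 genes with such reads. The share was lower with NaIO4 in wild type for 10 of the 14, in 8 with an interval below 1, against 14 and 9 of the 149. It was lower in the immunoprecipitate than in wild type for 11, in 9 with an interval below 1, against 30 and 20 of the 149. The 149 include the 14, and these measures share the untreated wild type library with the contrast that chose them. They were Rmrp, Gm37608, 1110038B12Rik, Gm43846, Gm48617, AA474408, Gm15564, Rian, B230208H11Rik, Gm26870, B930036N10Rik, 2900060B14Rik, 2310058D17Rik and Bc1, a small cytoplasmic RNA made by RNA polymerase III. This group was picked after its values were seen.

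Rmrp is the clearest case. It gave 6495, 929, 4769, 383, 9042 and 453 reads, and its share was 2.12 times that of wild type in the Mili knockout, 9.82-fold lower with NaIO4 in wild type and 49.4-fold lower in the immunoprecipitate. No Rmrp read in untreated wild type began with T. Most came from 1 sequence near the start of the transcript, shown because it alone made up most members in the Mili knockout, at chr4:43493030-43493059 on the minus strand and read 5193, 445, 3610, 234, 7063 and 61 times.
Rmrp: agctcgctctgaaggcctgtttcctaggct
It starts with A at position 5 of 281 and met the rule by its length and annotation, while its values in the NaIO4 and MILI libraries were unlike those of the leading genes. Gm37608 was like it in these measures, with 399, 145, 304, 30, 341 and 303 reads, and 0.752% of its untreated wild type reads had T first, but 100% of its immunoprecipitate reads lay within 1 mismatch of another gene.

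Binding to MILI was read from the immunoprecipitate. Members were 1.504 times as large a share there as in wild type total RNA (1.49 to 1.52), and 1.62 times without Rmrp, while protein-coding piRNAs were 2.13 times as large. Per protein-coding piRNA read lncRNA members were at 0.705, and with each distinct sequence counted once the ratio was 0.916, both in the other direction. Of 669 lncRNA genes, 334 (49.9%) were at least 2-fold higher in the immunoprecipitate, against 63.3% of all genes, and 15 (2.24%) were at least 2-fold lower, against 0.669%. The medians were 1.99 and 2.28. On shares of piRNA-like sense reads of 1 gene, 94 (14.1%) were higher and 108 (16.1%) lower, against 10.4% and 4.97% of all genes. Of untreated wild type reads without Rmrp, 78.1% had their exact sequence in the immunoprecipitate and 85.9% their 5′ end, and in the Mili knockout 41.8% and 52.6% did.

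The ratio to wild type varied widely among genes. BC051077 was 7.17 times higher in the immunoprecipitate (6.42 to 8.03), 1700020I14Rik 2.50 times, 1700001L05Rik 2.21 times and 2900097C17Rik 2.18 times, while Gm38246 and Gm30948 were at 1.14 and 1.12 times. They are among the 12 genes chosen by reads in the immunoprecipitate, which favours a high ratio there. BC051077 ranked 11 in the immunoprecipitate and 31 in untreated wild type. Among genes with 200 reads in the pair, the highest ratios were those of Gm42858 (30.8, from 3 wild type reads and 319, interval 10.5 to 150.4, with 98.4% of the latter near another gene) and Gm49602 (18.2, from 4 and 251). Both passed that rule only through their immunoprecipitate reads, which favours a high ratio. The lowest among genes with 200 reads in the pair were Rmrp and Gm43846 (0.183, from 262 and 165 reads). With fewer reads Gm26870 was at 0.0399 (80 and 11 reads) and AA474408 at 0.164 (108 and 61).

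lncRNA piRNAs mostly began with T, the usual first base of MILI piRNAs. Without Rmrp, T was first in 81.7% (81.46% to 81.99%), 83.9%, 83.1%, 79.0%, 26.1% and 86.4% of reads. Protein-coding piRNAs had T first in 84.0%, 85.6%, 85.8%, 84.0%, 32.2% and 87.4%. With Rmrp included, the values were 75.7% in untreated wild type and 6.43% in the Mili knockout.

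A at position 10 was more frequent in lncRNA piRNAs than in those of protein-coding genes in all libraries but the Mili knockout. A was at position 10 in 34.99% of lncRNA reads in untreated wild type (34.7% to 35.3%), 35.2% with NaIO4, 38.1% in the untreated Hen1 knockout and 38.3% there with NaIO4. The Mili knockout had 17.9% and the immunoprecipitate 33.3%. For protein-coding genes these were 28.8%, 28.6%, 29.0%, 29.4%, 23.1% and 28.5%. With each distinct sequence counted once and Rmrp left out, lncRNA piRNAs had 32.9% in wild type and 30.1% in the immunoprecipitate, and protein-coding ones 28.0% and 28.1%. Reads with an antisense match held more of it. Of lncRNA reads in wild type 33.6% also matched some transcript in antisense, against 3.62% of protein-coding reads. Most of these 27555 matched reads came from Gm38246, with 80.5% of its 14510 reads matched, and Gm30948, with 56.3% of 8996. All reads of these genes together had A at position 10 in 46.6% and 38.0%, and the class is not given here without them. lncRNA reads with such a match had A at position 10 in 46.0% (45.4% to 46.6%), and those without it in 29.4% (29.0% to 29.8%). In the immunoprecipitate these were 45.4% and 29.0%.

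Leading genes fell on both sides of this split. Gm38194 had an antisense match for 99.2% of its immunoprecipitate reads and A at position 10 in 53.9%, Gm38246 had 74.0% and 49.1%, and Gm42653 had 73.5% and 31.8%. Gm49654 and 2900097C17Rik had no read with an antisense match, and A at position 10 in 15.3% and 17.7%. 1700020I14Rik, with 0.0228% matched, had A there in 33.5%, so a gene without antisense matches was not always low.

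Pairs of sense and antisense reads had the ping-pong overlap. On the longest transcript of each lncRNA gene, overlaps of 10 nt between 5′ ends held 1969 paired reads in untreated wild type, where the other overlaps from 1 to 20 nt held 502 to 914. They held 4485 with NaIO4 (others 1352 to 2407), 4939 in the untreated Hen1 knockout (1538 to 2433), 181 there with NaIO4 (17 to 80), 4 in the Mili knockout (0 to 10) and 10302 in the immunoprecipitate (3363 to 6001). The 10 nt overlap was thus the most frequent in 5 libraries and not in the Mili knockout, where few pairs were left. Nearly all antisense reads also matched a transcript in sense, so these counts rest mostly on reads that could belong elsewhere. Of 1282095 antisense reads counted in untreated wild type 24380 had no such match, and of 11130597 in the immunoprecipitate 121798. With only the antisense reads that match no transcript in sense, 10 nt held 380 in wild type (69 to 225) and 2448 in the immunoprecipitate (621 to 1769). Paired reads at 10 nt were a small part, 2.34% of the sense reads in untreated wild type and 0.451% with only these antisense reads.

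**Figure D5:**
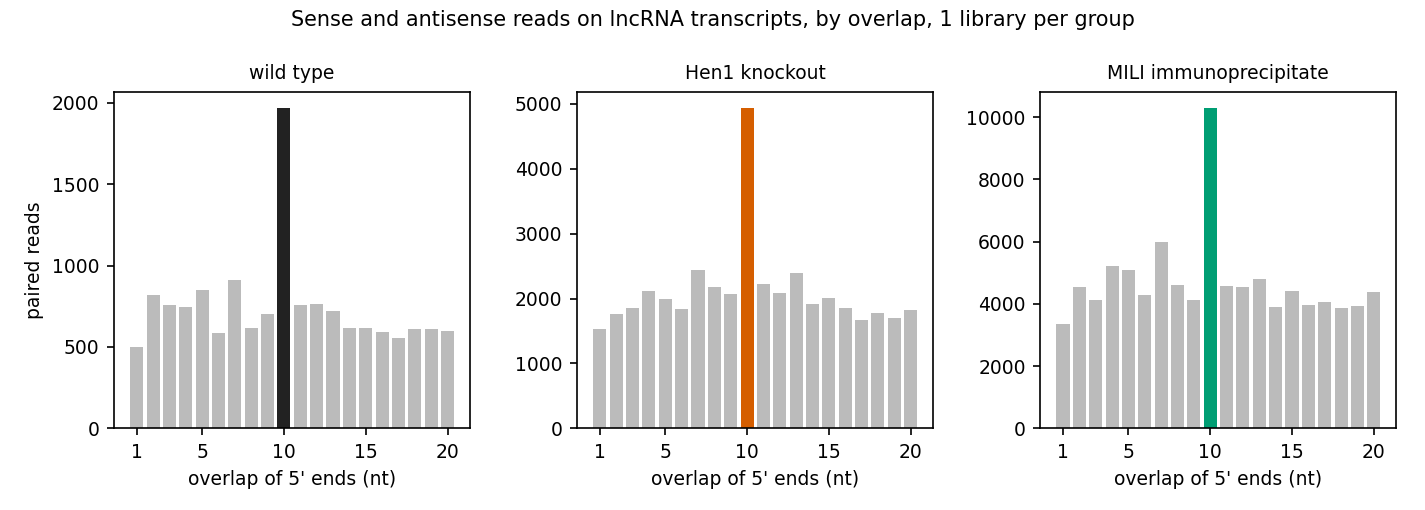
Paired reads (y axis) at each overlap of the 5′ ends of sense and antisense reads from 1 to 20 nt (x axis) on lncRNA transcripts in untreated wild type, the untreated Hen1 knockout and the MILI immunoprecipitate, 1 library each. The coloured bar at 10 nt is the highest in each, 1969, 4939 and 10302 paired reads. Nearly all antisense reads counted here also matched a transcript in sense.

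These pairs came from few genes. In the immunoprecipitate Gm37625 held 2277 of the paired reads at 10 nt, Gm38194 1512, Gm30948 810 and Gm38246 764. Gm38194 had 10418 sense and 6491 antisense reads there. Gm30948 had 34736 and 5726, and Gm38246 57023 and 1781. 1700001L05Rik, AU020206 and Gm49654 had 0 antisense reads, so no piRNA of the other strand was detectable on them in the immunoprecipitate at this depth. Gm37625 was named after its value was seen.

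Position in the transcripts was described without Rmrp. In untreated wild type 52.0% of reads lay on transcripts of 1 exon. Of the reads on longer ones 75.6% were in the last exon, 11.8% in the first and 2.97% (2.81% to 3.15%) crossed an exon junction of a spliced transcript. Junction reads were 3.68% in the immunoprecipitate and 2.00% in the untreated Hen1 knockout. The base after the 3′ end was T in 29.6% of wild type reads and 31.3% in the immunoprecipitate, where the next 9 positions had T in 22.4% to 28.8% and 23.8% to 28.5%. In the untreated Hen1 knockout it was T in 27.3%, within the 22.1% to 28.1% of the next positions, but with NaIO4 it was T in 31.045% there, above the 21.6% to 28.4% of the next ones. Among wild type reads with T first it was 28.9%, within their 22.1% to 29.8%.

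Known lncRNAs were read as 4 lists, whose medians stand beside those over all genes, 1.84 for NaIO4 in wild type, 0.287 for NaIO4 in the Hen1 knockout, 1.16 and 0.0131 for the Hen1 and Mili knockouts and 2.28 for the immunoprecipitate. Among snoRNA host genes, whose introns carry snoRNAs, all 15 of 18 found in the annotation had at least 20 reads in some library. They gave 202, 342, 210, 60.7, 18.1 and 514 rpm in sum. With at least 50 reads in the pair, 4 of 11 were 2-fold higher with NaIO4 in wild type (37.3% of all genes), 8 of 9 lower with it in the Hen1 knockout (86.4%), 1 of 11 higher in the Hen1 knockout (11.0%), 8 of 8 lower in the Mili knockout (98.8%) and 9 of 13 higher in the immunoprecipitate (63.3%). Their median ratios in that order, with the Hen1 knockout after NaIO4, were 1.71, 0.293, 1.30, 0.0598 and 2.18. Snhg17 gave 46.0 rpm in wild type and was 3.13 times higher in the immunoprecipitate, and Gas5, which restrains growth, gave 224, 412, 375, 24, 42 and 2116 reads.

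Nuclear or widely expressed lncRNAs gave 662, 1332, 1141, 334, 27.7 and 993 rpm, mostly from Malat1 and 2900097C17Rik. Of 10 found in the annotation by their listed names, 9 had 20 reads. Cyrano was listed as Oip5os1, a name the annotation lacks, so 1700020I14Rik is not in the sums, counts or medians of this list. Its own ratios were 2.13, 0.301, 0.972, 0.0164 and 2.50, in the order of the medians. With 50 reads, 2 of 4 were 2-fold higher with NaIO4 in wild type (37.3% of all genes), 4 of 4 lower with it in the Hen1 knockout (86.4%), 2 of 4 higher in the Hen1 knockout (11.0%), 4 of 4 lower in the Mili knockout (98.8%) and 2 of 5 higher in the immunoprecipitate (63.3%). Their median ratios were 1.98, 0.312, 1.60, 0.0408 and 1.83. Neat1, the scaffold of paraspeckles, gave 306, 782, 1220, 88, 14 and 1814 reads. Tug1 gave 298, 866, 360, 27, 2 and 2627 reads.

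Imprinted and X-linked lncRNAs gave few reads, 41.4, 63.9, 47.3, 15.7, 25.4 and 71.5 rpm in sum, and 9 of 13 had 20 reads. With at least 50 reads in the pair, 3 of 7 were 2-fold higher with NaIO4 in wild type (37.3% of all genes), 3 of 4 lower with it in the Hen1 knockout (86.4%), 0 of 5 higher in the Hen1 knockout (11.0%), 1 of 2 lower in the Mili knockout (98.8%), and 4 of 9 higher (63.3%) and 1 lower (0.669%) in the immunoprecipitate. Their median ratios were 1.70, 0.337, 1.4997, 0.923 and 1.82. Kcnq1ot1 gave 96, 230, 177, 13, 1 and 407 reads, and H19 gave 17, 60, 46, 3, 4 and 414. Rian and Meg3, both of the Dlk1-Dio3 region, gave 76, 73, 101, 7, 91 and 102 and 11, 47, 34, 0, 20 and 70. Their shares in the Mili knockout were 1.82 (1.33 to 2.51) and 2.77 (1.26 to 6.40) times those of wild type, where H19 was at 0.358 (0.0877 to 1.10). microRNA host genes gave 17.8, 33.2, 11.7, 3.46, 0.416 and 28.4 rpm, of which Mir670hg gave 88, 301, 88, 7, 0 and 564 of 130, 341, 137, 9, 2 and 716 reads, and 3 of 7 annotated had 20 reads.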

How the data were processed

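Each of the 6 small RNA files holds distinct read sequences with their read counts, deposited by the authors as whole numbers without scaling. How they were trimmed and filtered is not given in the sources used here. Per the submitters' processing notes, Bowtie and the mm10 build were used. Sequences of 25 to 31 nt were matched exactly, on both strands, to GENCODE M21 transcripts (GRCm38, the same assembly as mm10). No genome sequence was used here, so introns and intergenic copies were not searched and 1 gene means 1 gene among transcripts. Genes were named by rank in the immunoprecipitate (12) and in untreated wild type (5), by the 2 highest and 2 lowest ratios of each pair of libraries among genes with 200 reads in it, and by 4 lists. Reads of the 2 libraries of a pair were summed for this. A gene could thus pass through 1 of them, which favours extreme ratios. The members and lists were chosen with earlier results of these data known.

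Shares are of reads of 18 to 35 nt. Ratio intervals (95%) are exact conditional binomial, and that of the ratio of ratios is on the log scale. A gene was called at a 2-fold ratio with 0.5 added to each count and at least 50 reads in the pair, while printed gene ratios had nothing added. A count of 0 was set to a floor of 3 reads for a bound. No p-value was computed, since each group had 1 library. Alternatives were other denominators, read minimums and lengths, distinct sequences, and leaving out genes or near copies, and that without Rmrp was chosen after seeing the data. The spike-ins named in the labels were not used. The matching was tested on simulated data. The tools were numba 0.67.0, matplotlib 3.10.9, scipy 1.17.1, pandas 2.3.3, numpy 2.4.6 and Python 3.11.15.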

Additional observations from a re-analysis of the deposited data

Results flagged for a closer look

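The effect of NaIO4 differed between the wild type and Hen1 knockout libraries, with a higher share in the first and a lower share in the other, for the class and for all 12 leading genes. The difference was not tested, since each group had 1 library. Per protein-coding piRNA read the ratios of the 12 genes ran from 0.772 to 1.15 in wild type and from 0.812 to 1.22 in the Hen1 knockout. The share of protein-coding piRNAs itself moved with NaIO4, to 1.86 times in wild type and 0.288 times in the Hen1 knockout. Per microRNA read the 12 genes kept the contrast, at 17.9 to 26.6 in wild type and 0.604 to 0.905 in the Hen1 knockout. The microRNA share itself fell with NaIO4 in both, which raises these ratios. In wild type it went from 1408898 of 7322408 reads to 158218 of 10282416. Whether the contrast is seen, and its size, thus depend on the denominator. On shares of the library, the ratio of the Hen1 knockout's NaIO4 ratio to that of wild type was 0.182 for the class. It was 0.164 for Gm38246, 0.161 for Gm30948, 0.132 for 1700001L05Rik, 0.143 for AU020206, 0.157 for 2900097C17Rik and 0.192 for Gm49654. For the others it was 0.181 for Gm49116, 0.151 for Gm38194, 0.141 for 1700020I14Rik, 0.135 for Malat1, 0.216 for BC051077 and 0.148 for Gm42653.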

How the results depend on the processing

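Ratios of the class are given here in the order NaIO4 in wild type, NaIO4 in the Hen1 knockout, Hen1 knockout over wild type, Mili knockout over wild type, immunoprecipitate over wild type, and ratio of the NaIO4 ratios. Per microRNA read they were 19.8, 0.742, 4.21, 0.117, 34.2 and 0.0375. Per protein-coding piRNA read they were 0.852, 0.999, 1.28, 6.03, 0.705 and 1.17, which turned the direction of all but the second and the third. With each distinct sequence counted once they were 1.13, 0.840, 1.01, 0.191, 0.916 and 0.742, which turned that of the immunoprecipitate. With lengths of 26 to 30 nt they were 1.61, 0.280, 1.61, 0.183, 1.53 and 0.174. Without sequences within 1 mismatch of another gene they were 1.60, 0.293, 1.56, 0.270, 1.58 and 0.184, and without Gm38246 1.58, 0.293, 1.56, 0.247, 1.58 and 0.186. Without genes where 1 sequence held over 50% of the reads they were 1.73, 0.283, 1.76, 0.0428, 1.63 and 0.164, and without Rmrp 1.70, 0.286, 1.71, 0.0549, 1.62 and 0.168. The cause of the changes was not tested.

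Counts of lncRNA genes past 2-fold, higher and lower, follow the first 5 comparisons. With at least 20 reads in the pair they were 302 and 21, 7 and 479, 237 and 57, 7 and 303, and 604 and 59. That was 40.1% and 2.79%, 1.14% and 78.3%, 31.3% and 7.53%, 2.16% and 93.5%, and 49.9% and 4.88%. Over all genes the shares were 38.9% and 0.987%, 0.378% and 80.9%, 14.4% and 6.04%, 0.19% and 97.7%, and 61.5% and 1.44%. With at least 200 reads the counts were 30 and 2, 2 and 89, 27 and 5, 1 and 45, and 129 and 4. That was 25.4% and 1.69%, 2.11% and 93.7%, 23.1% and 4.27%, 1.92% and 86.5%, and 54.0% and 1.67%. Over all genes the shares were 34.1% and 0.301%, 0.126% and 96.1%, 8.44% and 1.57%, 0.232% and 98.2%, and 66.6% and 0.319%. As shares of piRNA-like sense reads of 1 gene the counts were 20 and 20, 31 and 53, 70 and 32, 22 and 108, and 94 and 108. That was 5.15% and 5.15%, 10.1% and 17.3%, 18.6% and 8.49%, 14.8% and 72.5%, and 14.1% and 16.1%. Over all genes the shares were 3.72% and 2.93%, 8.7% and 14.5%, 4.94% and 10.6%, 15.9% and 61.1%, and 10.4% and 4.97%. Counted once per distinct sequence, Rmrp included, T was first in 75.2%, 76.8%, 75.3%, 74.9%, 28.0% and 76.2% in the order of the libraries, and A was at position 10 in 32.8%, 31.8%, 32.5%, 34.7%, 27.1% and 30.1%. Overlaps of 10 nt were 13.2%, 11.7% and 10.9% of paired reads in untreated wild type, the untreated Hen1 knockout and the immunoprecipitate, and 12.9%, 10.7% and 11.5% with antisense reads that match no transcript in sense. With at least 50 reads at each shared 5′ end the length difference was -0.665 nt. No paired analysis was possible because each group had 1 library. Depth was lowest in the Hen1 knockout with NaIO4 (2604390 reads) and next in the Mili knockout (4808088). Besides Rmrp they held 14266 and 2955 member reads, so values within them rest on few reads.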

Other observations

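Outside the leading 12 genes, a few lncRNA genes had A at position 10 in most of their reads. Gm37625 gave 3694 reads in the immunoprecipitate, with T first in 53.7%, A at position 10 in 71.7% and an antisense match for 88.0%. Gm45322 gave 4248 reads there, with T first in 91.03%, A at position 10 in 90.96% and an antisense match for 93.5%. However, 1 sequence held 72.6% of these reads and 98.6% lay within 1 mismatch of another gene, so their origin is uncertain. Gm48604 gave 3388 reads, with A at position 10 in 59.1% although 0.177% of its reads had an antisense match. These genes were picked after their values were seen.

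The reads left in the Mili knockout, without Rmrp, came largely from other genes than in wild type. The 13 genes with 50 reads in the pair that were not 2-fold lower held 58.95% of them, and 2.67% in wild type. Positions were thus read on unlike sets of transcripts, and a change within the same transcripts was not tested. On transcripts with more than 1 exon 60.5% of the reads left were in the first exon and 24.97% in the last. In untreated wild type 11.8% and 75.6% were. Of the reads left, 9.79% crossed an exon junction (8.31% to 11.4%). These rest on 1450 reads.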
